A study of Arabidopsis thaliana with 6 samples.

Results

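In Arabidopsis thaliana ovules, RNA levels were followed for 51 nuclear genes that encode the light-harvesting antennas, subunits of both photosystems and enzymes of carbon fixation. They were taken by locus: 6 LHCA genes of the photosystem I antenna, 14 LHCB genes of the photosystem II antenna, 12 photosystem I and 11 photosystem II subunit genes, and 8 genes of the Calvin cycle (4 small Rubisco subunits, GAPA, GAPB, PRK and RCA). These are 51 of 30457 listed features, and 47 of them had a mean of at least 1 FPKM (sequenced fragments per kilobase of a transcript, relative to all mapped fragments) over the libraries and were tested. The study compared ovules labelled wild type with ovules labelled sgd, with 3 libraries of poly(A) RNA each. Both genotypes carried the qrt1 background, the ovules were at stages FG1 to FG3 of embryo sac development, and plants grew in a greenhouse at 22 °C with 16 h of light and 8 h of darkness. What limits the sgd line as a model (the mutated locus, the allele or the number of lines) is not stated in the sources used here. The labels do not say whether the 3 libraries of a genotype are separate harvests, so every p-value reflects the spread among these libraries alone, which may be technical.

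The photosystems sit in the thylakoid membrane of the chloroplast, where chlorophyll-binding antenna proteins pass light energy to reaction centres that drive electron transport. The core of each photosystem is encoded in the plastid, while the antennas and many peripheral subunits are encoded in the nucleus, made in the cytosol and imported. These nuclear genes are known for rising together with light and chloroplast development and for daily rhythms in leaves, and their promoters are known for a G-box, which binds bZIP and bHLH factors such as HY5 and the PIF proteins, and for a site named after the clock factor CCA1, found on an LHCB1 promoter.

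The promoters were read first, since a shared letter pattern is a property of the genes that the choice by locus did not use. In the 300 bases from 250 before to 50 after the annotated start, on both strands, the G-box CACGTG stood in 33.3% of the 51 promoters (17 genes) and in 7.68% of all 27443 promoters. The photosystem subunits held 11 of the 17, from 23 genes, and the antenna genes 4, from 20 genes. The I-box GATAAG stood in 43.1% against 14.6%, CCAAT in 72.5% against 51.6%, and the TATA box TATAAA in 45.1% against 52.1%. The CCA1-binding site AAAAATCT stood in 11.8% against 7.88%, and the evening element AAATATCT, another clock motif, in 1.96% against 5.65%. Only these letters were searched, so variant forms of a site were not counted. In the window of the same length before the start codon the G-box stood in 43.1% against 6.23%, the I-box in 62.7% against 15.4%, the CCA1-binding site in 17.6% against 8.1% and the evening element in 0 of 51 genes against 4.77%. Motif matches describe letters only, the 6 motifs can overlap one another, and the windows of 22 genes overlap a neighbouring gene.

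The following G-boxes (in capitals, with 12 bases on each side, 5′ to 3′ on the strand of the gene) are shown for the genes whose values stood out below, and for both PSBO and both PSAE copies, which share the motif. Sequences and positions are those of RefSeq on assembly TAIR10.1. The deposited files list no coordinates and their build is named TAIR10, so the positions belong to the reference only.
LHCA4 chr3:17495104-17495133 minus strand: ccatttaattgaCACGTGtaacaacaatgg
LHCB2.3 chr3:10255806-10255835 plus strand: acatatcttctaCACGTGaatctagtttgt
LHCB4.1 chr5:208780-208809 plus strand: aagaccgcagtaCACGTGgcttcttctaac
PSAE-1 chr4:14204036-14204065 minus strand: atatgtaatgtaCACGTGgcagatctcaag
PSAE-2 chr2:8736659-8736688 plus strand: gatatgtgatcaCACGTGtcatatcacaag
PSBO1 chr5:26568563-26568592 plus strand: ttcagatttcgaCACGTGgcaacaaaaaaa
PSBO2 chr3:18892458-18892487 minus strand: atcagctttagaCACGTGgctattgatcga
PRK chr1:11532014-11532043 plus strand: attagaatctccCACGTGtcaattcaaata
In PSBO1, PSBO2 and PSAE-1 the match lay after the annotated start, within the first bases of the transcript, and in the other genes shown before it. Of the 17 genes with a G-box 4 were called higher in sgd by the test described below, and of the 34 without it 9, against 13.3% of all tested features. RBCS2B among the 17 and LHCA6, LHCB1.4 and RBCS1B among the 34 were too low to test. These counts hold for the window around the annotated start. The window before the start codon held the G-box in another set of 22 genes, with LHCA2 and RBCS1A and without LHCA4 and PRK.

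The CCA1-binding site is shown in capitals for LHCA4 and for the neighbouring copies LHCB1.1 and LHCB1.3, in the same layout (AGATTTTT is the site read on the other strand).
LHCA4 chr3:17495197-17495226 minus strand: aatcagactttAGATTTTTggtttcccata
LHCB1.1 chr1:10476029-10476058 minus strand: aacgataaaacAAAAATCTtaaaatccaat
LHCB1.3 chr1:10477887-10477916 plus strand: taaaccccaaaAAAAATCTatgactagcca
LHCB1.2, which lies beside them on chromosome 1, held no match to the searched form of this site in either window. The 250 bases before the annotated start are printed for LHCB1.1 (chr1:10475970-10476219, minus strand) and LHCB1.2 (chr1:10473503-10473752, minus strand), because these neighbours, with near-identical coding sequences, showed opposite signs of change, and for LHCA4 (chr3:17495034-17495283, minus strand), which held both motifs. Capitals mark the G-box and the CCA1-binding site. The annotated start lies 77 bases before the start codon in LHCB1.1 and 256 bases before it in LHCB1.2. The stretches printed for these copies are therefore not matching positions, and their unlike letters do not show that the promoters differ.
LHCB1.1: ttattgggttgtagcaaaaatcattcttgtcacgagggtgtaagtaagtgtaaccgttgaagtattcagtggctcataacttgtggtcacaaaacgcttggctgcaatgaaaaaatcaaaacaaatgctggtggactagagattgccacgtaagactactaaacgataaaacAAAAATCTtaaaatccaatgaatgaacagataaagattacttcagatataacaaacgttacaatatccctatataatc
LHCB1.2: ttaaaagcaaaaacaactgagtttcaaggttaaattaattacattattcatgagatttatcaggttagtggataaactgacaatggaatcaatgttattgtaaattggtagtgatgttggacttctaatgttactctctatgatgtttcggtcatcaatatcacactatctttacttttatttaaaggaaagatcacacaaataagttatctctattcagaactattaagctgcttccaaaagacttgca
LHCA4: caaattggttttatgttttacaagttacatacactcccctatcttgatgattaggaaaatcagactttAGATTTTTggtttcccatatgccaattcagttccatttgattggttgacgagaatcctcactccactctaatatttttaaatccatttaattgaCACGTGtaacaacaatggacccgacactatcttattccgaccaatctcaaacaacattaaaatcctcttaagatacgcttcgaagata

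Photosynthesis transcripts were abundant in these ovules and more abundant in the sgd libraries. Of the 47 tested genes, 26 ranked within the highest 10% of the 18100 tested features by mean FPKM in wild type and 33 in sgd, and the median rank was 1335 and 749. LHCB1.3 was the most abundant member, at rank 109 in wild type and rank 9 in sgd. Summed over all 51 genes, transcripts reached 2876, 6979 and 5184 FPKM in wild type (numbers 1, 2 and 3, the order kept throughout) and 7769, 10439 and 11173 FPKM in sgd. The groups did not overlap, but sgd library 1 stood only slightly above wild-type library 2. The ratio of the means was 1.95, and 2.70, 1.496 and 2.16 between libraries of the same number. As a share of the summed FPKM of the library they were 0.544%, 0.930% and 0.670% in wild type and 1.38%, 1.31% and 1.403% in sgd.

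By complex, the ratio of sgd to wild type was higher for the antennas and the Calvin cycle than for the photosystem subunits. The Calvin cycle genes went from 318 ± 100.1 to 786 ± 22.6 FPKM, a ratio of 2.47, the photosystem II antenna from 1693 ± 909 to 4282 ± 1172 FPKM, a ratio of 2.53, and the photosystem I antenna from 523 ± 256 to 1263 ± 211 FPKM, a ratio of 2.42 (SD, n = 3 for each). The photosystem I subunits stood at 1113 ± 355 and 1585 ± 265 FPKM, a ratio of 1.42, and the photosystem II subunits at 1366 ± 443 and 1878 ± 187 FPKM, a ratio of 1.37 (SD, n = 3 for each). In both subunit sums wild-type library 2 stood above sgd library 1, so those groups overlapped, and in the other sums they did not. Few genes made up much of the antenna and Calvin cycle sums. In sgd the LHCB1 copies together had a mean of 3170 FPKM, LHCA4 of 681 FPKM and RBCS1A of 526 FPKM. The median log2 change of single genes was 1.27 and 0.99 in the photosystem I and II antennas and 1.37 in the Calvin cycle. It was 0.59 and 0.57 in the photosystem I and II subunits. No test is given for sums, and the differences between complexes were not tested. In bulk ovule RNA a change in the number of cells of a type and a change in RNA per cell cannot be told apart.

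**Figure D1:**
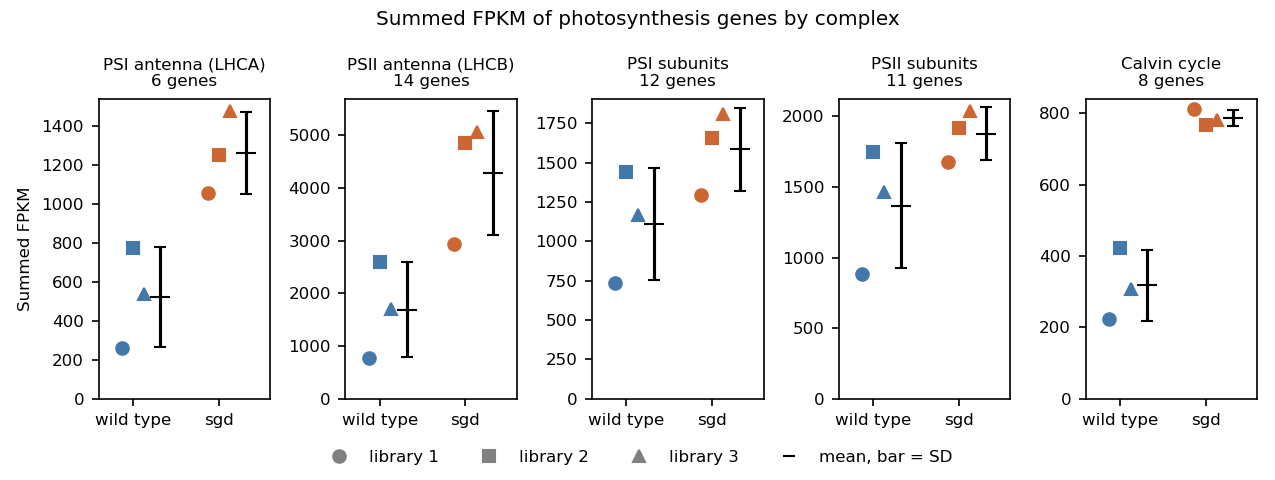
Summed FPKM of the genes of each complex (vertical axis, from 0) in the 3 wild-type and 3 sgd libraries (one marker shape per library number), with the mean and SD beside them. The antenna and Calvin cycle sums do not overlap between the genotypes (ratios of means 2.42, 2.53 and 2.47), and the subunit sums do (1.42 and 1.37).

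Each gene was tested with limma on log2(FPKM + 1), sgd minus wild type, with Benjamini-Hochberg adjustment over all 18100 features. Of the 47 genes 13 were called higher (27.7%), 1 lower and 33 were not called, where 13.3% of all tested features were called higher and 4.47% lower. At an unadjusted p under 0.05 in limma, 21 of the 47 genes were higher and 1 of 47 lower, against 21.4% and 8.82% of all features. The median log2 change of the 47 genes was 0.80 and that of all features 0.13. The fitted change was above 0 for 44 of the 47 and for 58.9% of all features. In 21 of 47 genes every sgd value lay above every wild-type value, and in 0 below, where this held for 26.8% and 8.8% of all tested features. Adding the replicate number as a block gave 27 of 47 higher (57.4%) and 1 of 47 lower, against 26.5% and 14.3% of all features. The deviations of the libraries set those numbered 1 apart from the others and did not tell numbers 2 and 3 from each other. Median-ratio scaling moved the median of all features from 0.13 to -0.02. After it, 22 of 47 were higher (46.8%) and 1 of 47 lower, against 19.1% and 18.7% of all features. With the block and this scaling together 22 of 47 were higher and 1 of 47 lower, against 19.5% and 20.2% of all features. The count of higher genes was 20 of 47 without sgd library 1, against 19.5% of all features. It was 27 of 47 (57.4%) without both libraries numbered 1, against 32.2% of all features. When features of any level were tested it was 6 of 51, against 5.71%. The genes gained without sgd library 1 were LHCA3, LHCB1.3, LHCB1.5, LHCB6, PSAE-1, PSAE-2 and PSAG (limma adjusted p from 0.00971 to 0.0407).

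The low wild-type library 1 set much of the spread. It was the lowest wild-type library in 45 of the 47 genes and wild-type library 2 the highest in 45 of 47. Summed over all features, FPKM was 528715, 750410 and 773551 in wild type and 561173, 794936 and 796250 in sgd. The sum over all features was thus low in both libraries numbered 1. As a share of that sum, the photosynthesis genes were still lowest in wild-type library 1, at 0.544% against 0.930% and 0.670%. In sgd library 1 their share was not low, at 1.38% against 1.31% and 1.403%. By library number, 35 of the 47 genes were higher in sgd in all 3 pairs and 1 was lower in all 3. How many of all features showed these orders of libraries was not counted. Both libraries numbered 1 also stood apart in other RNAs: chloroplast loci held 1.32% and 1.37% of their summed FPKM and at most 0.0504% in the others, and the noncoding RNA locus AT3G06355 held 8.33% and 5.93% against at most 0.322%. Without both libraries numbered 1 the median change of the 47 genes was 0.57, against 0.14 for all features.

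**Figure D2:**
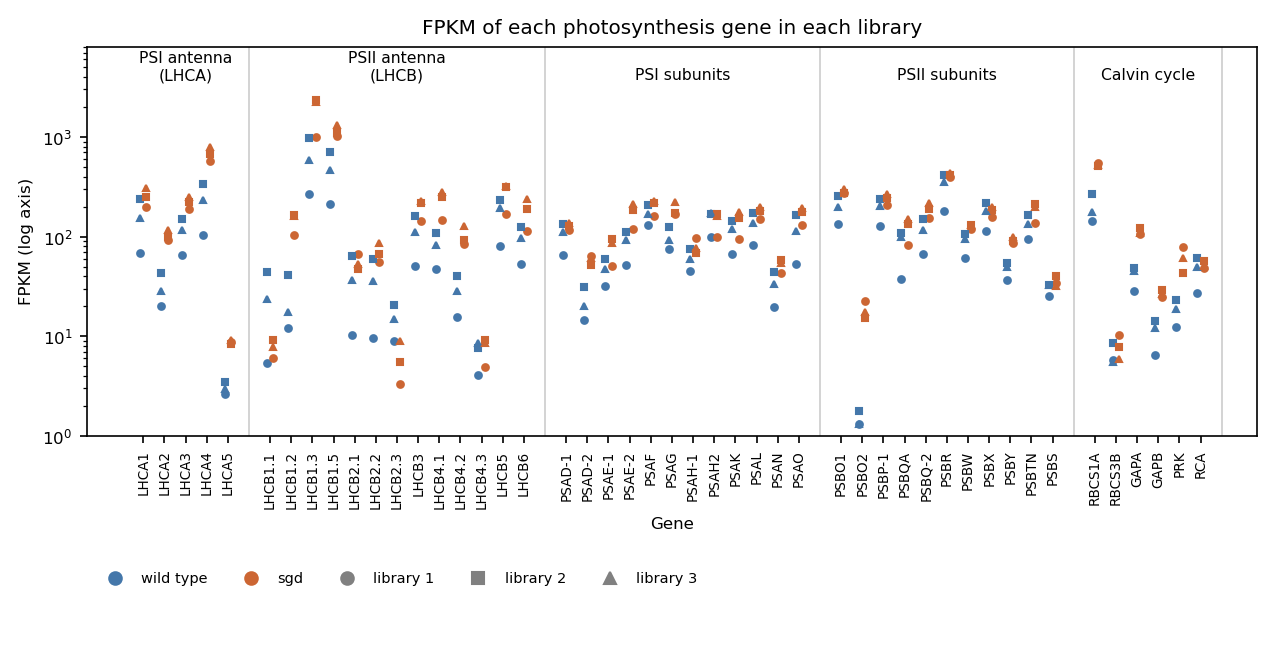
FPKM of the 47 tested photosynthesis genes (log axis) in each library, wild type in blue and sgd in orange, with one marker shape per library number. Wild-type library 1 (blue circles) is the lowest wild-type value in 45 of 47 genes, and PSBO2 and LHCB1.2 have the widest gaps between the groups. Summed FPKM over all features is also lowest in wild-type library 1.

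**Figure D3:**
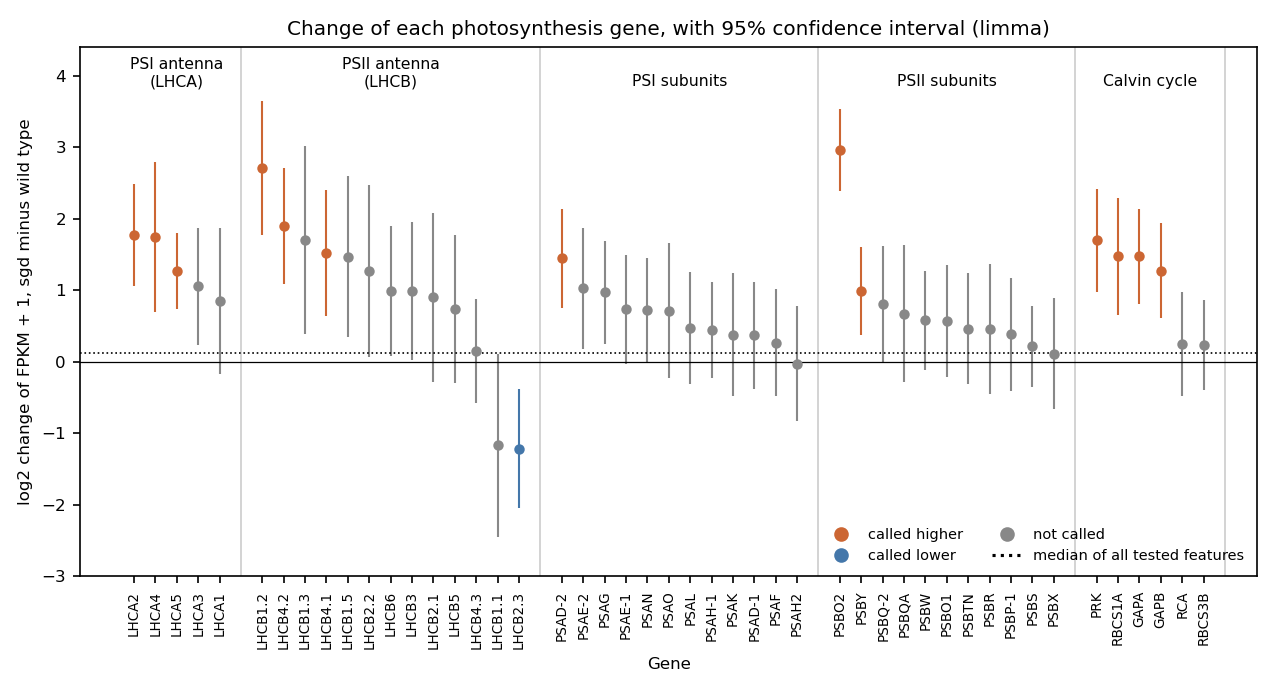
Log2 change of FPKM + 1, sgd minus wild type, of each tested gene with its 95% confidence interval from limma, ordered by size within each complex. Orange marks 13 genes called higher and blue the 1 called lower, and the dotted line is the median of all tested features (0.13).

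In the photosystem I antenna 3 of 5 tested genes rose (60%, against 13.3% of all tested features), and the median change was 1.27. LHCA4 (AT3G47470), which forms a dimer with LHCA1 and carries the most red-shifted chlorophylls of this antenna, stood at 103, 336 and 234 FPKM in wild type and 573, 673 and 799 FPKM in sgd. All sgd values lay well above the wild-type values, and it rose by 1.74 (log2 scale, SE 0.47, adjusted p = 0.0287 in limma). LHCA2 (AT3G61470), which pairs with LHCA3, stood at 20.1, 43.3 and 28.4 FPKM in wild type and 92.8, 99.2 and 116 FPKM in sgd, again with separate groups. It rose by 1.78 (log2 scale, SE 0.32, adjusted p = 0.00411 in limma). LHCA5 (AT1G45474), a minor protein that links photosystem I to the NDH complex, was low but even, at 2.64, 3.5 and 2.98 FPKM in wild type and 8.71, 8.27 and 9.14 FPKM in sgd. It rose by 1.27 (log2 scale, SE 0.24, adjusted p = 0.00532 in limma).

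The other antenna genes of photosystem I were less clear. LHCA3 (AT1G61520) stood at 65.5, 149 and 116 FPKM in wild type and 188, 223 and 247 FPKM in sgd, with separate groups but no call (log2 change 1.05, SE 0.37, limma adjusted p = 0.0773), and with the replicate block it was called (limma adjusted p = 0.0173). LHCA1 (AT3G54890) stood at 69, 239.8 and 154 FPKM in wild type and 197, 248 and 309 FPKM in sgd, with wild-type library 2 among the sgd values (log2 change 0.85, SE 0.46, limma adjusted p = 0.254). The means of LHCA1 and its partner LHCA4 were 154 and 224 FPKM in wild type and 251 and 681 FPKM in sgd. LHCA6 (AT1G19150), the second NDH linker, was at 0.56 FPKM or less in every library and was not tested. LHCA2 and LHCA5 were called under all 19 alternatives, and LHCA4 was not called without wild-type library 1 or 3 or sgd library 3 (adjusted p = 0.065, 0.0664 and 0.107 in limma) or with no filter (0.136).

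The LHCB1 to LHCB3 proteins form the trimers of the main photosystem II antenna. LHCB1 is encoded by 5 copies, 3 of them side by side on chromosome 1 with coding sequences identical in 95.6% to 96.4% of bases, and summing them avoids the division of reads between them. The sum stood at 497, 1773 and 1098 FPKM in wild type and 2145, 3654 and 3712 FPKM in sgd. The groups did not overlap, and the change was 1.64 (SE 0.60, limma adjusted p = 0.0918), called with the replicate block (limma adjusted p = 0.0112). LHCB1.3 (AT1G29930), the most abundant copy, stood at 266, 975.1 and 593 FPKM in wild type and 999.7, 2374 and 2227 FPKM in sgd, and LHCB1.5 (AT2G34420) at 213, 712 and 463 FPKM in wild type and 1034, 1105 and 1316 FPKM in sgd. In both copies every sgd value lay above every wild-type value, by a small margin in LHCB1.3, and neither was called (1.70 and 1.47, limma adjusted p = 0.0761 and 0.0717), but both were with the block (limma adjusted p = 0.00612 and 0.0264).

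The neighbours of LHCB1.3 went apart from each other. LHCB1.2 (AT1G29910) stood at 11.98, 41.2 and 17.6 FPKM in wild type and 105, 165 and 161 FPKM in sgd, with widely separate groups, and rose by 2.71 (log2 scale, SE 0.42, adjusted p = 0.00186 in limma), a call kept under all 19 alternatives. LHCB1.1 (AT1G29920) stood at 5.4, 44.6 and 23.7 FPKM in wild type and 6.02, 9.26 and 7.82 FPKM in sgd. Wild-type libraries 2 and 3 were above every sgd library and wild-type library 1 was below them, and it was not called (log2 change -1.17, SE 0.58, limma adjusted p = 0.208). Without wild-type library 1 it was called lower (log2 change -1.96, limma adjusted p = 0.0124), as it was without both libraries numbered 1 (-1.82, 0.00444). Of the 50-base windows of the transcripts, 20.5% in LHCB1.1 and 10.6% in LHCB1.2 were shared exactly with another copy, so the values of single copies are uncertain. LHCB1.4 (AT2G34430) was at 0.3 FPKM or less in every library and was not tested.

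LHCB2, whose phosphorylation drives state transitions, differed between its copies. LHCB2.1 (AT2G05100) stood at 10.3, 63.6 and 37 FPKM in wild type and 67.5, 47.04 and 53.7 FPKM in sgd, and LHCB2.2 (AT2G05070) at 9.5, 60.1 and 36.1 FPKM in wild type and 55.2, 66.2 and 86.8 FPKM in sgd. In both, wild-type library 1 was far below the rest and the groups overlapped, and neither was called (0.90 and 1.27, limma adjusted p = 0.301 and 0.146), but LHCB2.2 was called higher without wild-type library 2 (1.81, limma adjusted p = 0.0311). LHCB2.3 (AT3G27690) stood at 9.03, 20.8 and 15 FPKM in wild type and 3.28, 5.48 and 9.03 FPKM in sgd, the only member called lower. It fell by 1.22 (log2 scale, SE 0.38, adjusted p = 0.0488 in limma), with the groups meeting at one value, and the call was lost without wild-type library 2 or 3 or sgd library 1 or 2 (adjusted p = 0.186, 0.113, 0.0578 and 0.0645 in limma), with no filter (0.211), with a pseudocount of 0.01 (0.0524) and with eBayes without a trend (0.0577). The sum of the 3 copies stood at 28.8, 145 and 88.1 FPKM in wild type and 126, 119 and 149.5 FPKM in sgd and was not called (log2 change 0.85, SE 0.50, limma adjusted p = 0.299). No 50-base window of LHCB2.3 was shared with another copy. LHCB3 (AT5G54270), the third trimer protein, stood at 50.9, 159.8 and 110.4 FPKM in wild type and 143, 216 and 229 FPKM in sgd, with wild-type library 2 above sgd library 1 (log2 change 0.98, SE 0.43, limma adjusted p = 0.157), and was called with the block (limma adjusted p = 0.025).

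LHCB4, LHCB5 and LHCB6 are monomeric antenna proteins that link the trimers to the core, and LHCB4 has 3 genes. LHCB4.1 (AT5G01530) stood at 46.8, 108 and 82.5 FPKM in wild type and 148, 249.8 and 277 FPKM in sgd, and LHCB4.2 (AT3G08940) at 15.5, 40.4 and 28.4 FPKM in wild type and 84.8, 92.3 and 129 FPKM in sgd. Both had separate groups and rose, by 1.52 and 1.90 on the log2 scale (SE 0.40 and 0.37, limma adjusted p = 0.0244 and 0.00573). LHCB4.3 (AT2G40100), which lacks part of the protein's end, stood at 4.1, 7.67 and 8.62 FPKM in wild type and 4.95, 9.27 and 8.55 FPKM in sgd, with mixed groups (log2 change 0.15, SE 0.33, limma adjusted p = 0.822). Summed, LHCB4 rose by 1.59 (log2 scale, SE 0.40, adjusted p = 0.0218 in limma). LHCB5 (AT4G10340) stood at 80.6, 235 and 196 FPKM in wild type and 169, 318 and 320.2 FPKM in sgd, with wild-type libraries 2 and 3 above sgd library 1 (log2 change 0.73, SE 0.46, limma adjusted p = 0.34). LHCB6 (AT1G15820) stood at 53.4, 125 and 96.7 FPKM in wild type and 114, 189.5 and 239 FPKM in sgd, with overlap only between wild-type library 2 and sgd library 1 (log2 change 0.99, SE 0.41, limma adjusted p = 0.131). With the block both were called (limma adjusted p = 0.0203 and 0.0129). The LHCB4.1 call was lost without wild-type library 1 or 3 or sgd library 2 or 3 (adjusted p = 0.0718, 0.0553, 0.0558 and 0.103 in limma), that of the LHCB4 sum without wild-type library 1 or 3 or sgd library 3 (0.0599, 0.054 and 0.0968), and with no filter those of LHCB4.1, LHCB4.2 and the sum (0.113, 0.0616 and 0.0978).

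Among the 12 photosystem I subunit genes 1 rose (8.33%, against 13.3% of all tested features) and 11 were not called, with a median change of 0.59. PSAD and PSAE form the stromal ridge where ferredoxin docks, each from a pair of genes. PSAD-2 (AT1G03130) stood at 14.5, 31.4 and 19.97 FPKM in wild type and 63.97, 51.7 and 61.6 FPKM in sgd, with separate groups, and rose by 1.45 (log2 scale, SE 0.31, adjusted p = 0.0101 in limma), which was not called without a filter (adjusted p = 0.0604 in limma). PSAD-1 (AT4G02770), the more abundant copy, stood at 65.3, 133 and 111 FPKM in wild type and 118, 128 and 138 FPKM in sgd, with wild-type library 2 within the sgd range (log2 change 0.37, SE 0.34, limma adjusted p = 0.538). Summed, PSAD was not called (log2 change 0.64, SE 0.35, limma adjusted p = 0.259). PSAE-1 (AT4G28750) stood at 31.6, 59.3 and 47.2 FPKM in wild type and 51.1, 95.1 and 85.8 FPKM in sgd, and PSAE-2 (AT2G20260) at 52.1, 112 and 92.9 FPKM in wild type and 118, 186 and 212 FPKM in sgd. PSAE-1 groups overlapped through sgd library 1, those of PSAE-2 did not, and neither was called (0.73 and 1.02, limma adjusted p = 0.185 and 0.094). With the block both copies and their sum were called (limma adjusted p = 0.00761, 0.00809 and 0.00758).

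PSAG (AT1G55670), which binds LHCA1 at the rim of the complex, stood at 74.3, 124 and 91.9 FPKM in wild type and 167, 174 and 223 FPKM in sgd. The groups were separate, the change was 0.97 (SE 0.32, limma adjusted p = 0.0644), and with the block it was called (limma adjusted p = 0.0174). PSAN (AT5G64040), a lumenal subunit at the plastocyanin side, stood at 19.6, 44.1 and 33.3 FPKM in wild type and 42.9, 57.6 and 54.9 FPKM in sgd, with overlap only between wild-type library 2 and sgd library 1 (log2 change 0.72, SE 0.33, limma adjusted p = 0.168, 0.025 with the block and 0.0541 with the block and median-ratio scaling). PSAF (AT1G31330), which docks plastocyanin, stood at 131, 209.6 and 167 FPKM in wild type and 160.3, 217 and 229 FPKM in sgd, with overlap (log2 change 0.27, SE 0.34, limma adjusted p = 0.673). No subunit of the side where LHCII docks was called. PSAH2 (AT1G52230) stood at 98.5, 169 and 172 FPKM in wild type and 98.7, 169 and 162 FPKM in sgd, with near-equal ranges (log2 change -0.03, SE 0.36, limma adjusted p = 0.974, 95% interval -0.83 to 0.78). Its copy PSAH-1 (AT3G16140) had means of 59.96 ± 14.8 and 80.8 ± 14.4 FPKM (SD, n = 3), PSAL (AT4G12800) of 130.2 ± 44.5 and 175 ± 24.1 FPKM (SD, n = 3), and PSAO (AT1G08380) of 111 ± 56.7 and 166 ± 31.1 FPKM (SD, n = 3), all with overlapping groups and log2 changes of 0.44, 0.47 and 0.71 (limma adjusted p = 0.383, 0.427 and 0.309). PSAK (AT1G30380), at the opposite rim, had means of 110.3 ± 39.7 and 141 ± 41.99 FPKM (SD, n = 3) and a change of 0.38 (SE 0.39, limma adjusted p = 0.583).

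Among the 11 photosystem II subunit genes 2 rose (18.2%, against 13.3% of all tested features) and 9 were not called, with a median change of 0.57. The largest change of all members was in PSBO2 (AT3G50820), one of a pair of genes for the extrinsic protein that stabilises the manganese cluster of water oxidation. The gene lies at chr3:18890874-18892508, minus strand, with 3 exons, on TAIR10.1. It stood at 1.33, 1.79 and 1.3 FPKM in wild type and 22.7, 15.2 and 17.3 FPKM in sgd. The sgd values were uniformly high and the wild-type values uniformly low, 18.4 ± 3.88 against 1.47 ± 0.275 FPKM (SD, n = 3), a ratio of 12.5. It rose by 2.96 (log2 scale, SE 0.26, adjusted p = 8.91e-05 in limma), and over the 19 alternatives the adjusted p stayed between 5.9e-10 and 0.00812. Its copy PSBO1 (AT5G66570), with 83.6% of coding bases identical and no shared 50-base window, stood at 134, 255 and 199 FPKM in wild type and 273, 275 and 297 FPKM in sgd. Every sgd value of PSBO1 was higher than every wild-type value by a small margin, and it was not called (log2 change 0.57, SE 0.36, limma adjusted p = 0.332).

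PSBY (AT1G67740), a small membrane subunit, stood at 36.9, 53.9 and 49.4 FPKM in wild type and 86.8, 90.1 and 100.2 FPKM in sgd, with separate groups. It rose by 0.98 (log2 scale, SE 0.28, adjusted p = 0.0343 in limma), a call lost when any library other than sgd library 1 was left out (limma adjusted p from 0.0542 to 0.151). The other extrinsic proteins of water oxidation were not called: PSBP-1 (AT1G06680) had means of 189 ± 56.3 and 240.3 ± 31.2 FPKM (SD, n = 3), PSBQA (AT4G21280) of 81.5 ± 38.3 and 122 ± 34.8 FPKM (SD, n = 3) and PSBQ-2 (AT4G05180) of 111 ± 42.8 and 186 ± 30.04 FPKM (SD, n = 3), with changes of 0.39, 0.67 and 0.80 (limma adjusted p = 0.538, 0.348 and 0.174). With the block PSBQA, PSBQ-2 and their sum were called (limma adjusted p = 0.0406, 0.0314 and 0.0357), and with the block and median-ratio scaling they were not (0.089, 0.0618 and 0.0716). PSBR (AT1G79040), which helps to bind them and was the most abundant of these subunits, stood at 182, 419.7 and 357 FPKM in wild type and 400.5, 411 and 431 FPKM in sgd, with only wild-type library 1 clearly apart (log2 change 0.46, SE 0.41, limma adjusted p = 0.521).

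PSBW (AT2G30570) stood at 60.8, 105 and 94.5 FPKM in wild type and 119.8, 129.7 and 131 FPKM in sgd, with separate groups (log2 change 0.58, SE 0.31, limma adjusted p = 0.253), and PSBTN (AT3G21055) at 95.6, 166 and 135 FPKM in wild type and 135, 210 and 199 FPKM in sgd, with overlap (log2 change 0.46, SE 0.35, limma adjusted p = 0.429). With the block both of these small subunits were called (limma adjusted p = 0.0413 and 0.0211), and with the block and median-ratio scaling neither was (0.101 and 0.0644). PSBX (AT2G06520), another small subunit, had means of 171 ± 52.5 and 179.6 ± 21.1 FPKM (SD, n = 3), overlapping groups and a change of 0.11 (95% interval -0.66 to 0.88, limma adjusted p = 0.88). PSBS (AT1G44575), the sensor of nonphotochemical quenching, stood at 25.5, 32.8 and 32.6 FPKM in wild type and 34.2, 39.9 and 31.7 FPKM in sgd, with mixed groups (log2 change 0.22, SE 0.25, limma adjusted p = 0.645).

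Of the 6 tested Calvin cycle genes 4 rose (66.7%, against 13.3% of all tested features), with a median change of 1.37. RBCS1A (AT1G67090), the main gene of the small Rubisco subunit in leaves, stood at 142, 266 and 177 FPKM in wild type and 543, 508 and 526 FPKM in sgd. The sgd values were almost equal to each other and well above each wild-type value, and it rose by 1.47 (log2 scale, SE 0.37, adjusted p = 0.0206 in limma). It held between 95.7% and 98.8% of the summed RBCS FPKM in every library, and the sum rose by 1.44 (log2 scale, SE 0.37, adjusted p = 0.0226 in limma). RBCS3B (AT5G38410) stood at 5.72, 8.51 and 5.54 FPKM in wild type and 10.2, 7.79 and 5.86 FPKM in sgd, with overlap (log2 change 0.23, SE 0.28, limma adjusted p = 0.658). RBCS1B (AT5G38430) and RBCS2B (AT5G38420), which share 97.3% of coding bases, were at 1.09 FPKM or less and were not tested. RCA (AT2G39730), which activates Rubisco, stood at 27.1, 60.8 and 49.3 FPKM in wild type and 48.6, 56.6 and 50.5 FPKM in sgd. Only wild-type library 1 was apart, and RCA was not called (log2 change 0.25, SE 0.33, limma adjusted p = 0.681).

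GAPA, GAPB and PRK encode the enzymes that the CP12 protein binds in darkness, and all of them rose. GAPA (AT3G26650), a subunit of plastid glyceraldehyde-3-phosphate dehydrogenase, stood at 28.4, 48.7 and 45.4 FPKM in wild type and 105, 122 and 109.7 FPKM in sgd, and GAPB (AT1G42970), the other subunit, at 6.48, 14.2 and 12.01 FPKM in wild type and 24.5, 28.8 and 26.4 FPKM in sgd. Both had separate groups with little spread in sgd, and they rose by 1.47 and 1.27 on the log2 scale (SE 0.30 and 0.30, limma adjusted p = 0.00755 and 0.0154). PRK (AT1G32060), phosphoribulokinase, stood at 12.4, 23.4 and 18.8 FPKM in wild type and 78.9, 42.6 and 61.6 FPKM in sgd, highest in sgd library 1. It rose by 1.69 (log2 scale, SE 0.33, adjusted p = 0.00571 in limma). The GAPA call held under all 19 alternatives. Those of GAPB, PRK, RBCS1A and the RBCS sum were lost with no filter (limma adjusted p = 0.0788, 0.0538, 0.056 and 0.0589), that of RBCS1A also without wild-type library 3 or sgd library 2 or 3 (0.103, 0.0522 and 0.0866), and that of the sum without wild-type library 1 or 3 or sgd library 2 or 3 (0.0531, 0.113, 0.0579 and 0.0938).

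In 6 of 9 families at least 1 copy held shares of the family sum that did not overlap between the genotypes. How often this holds for shares in other gene families was not counted, so the count has no background. For FPKM values, 26.8% of all tested features had every sgd value above and 8.8% every sgd value below the wild-type values. In a family of 2 copies the shares are complements, so both separate together. The share of PSBO2 in the PSBO sum was 0.986, 0.697 and 0.648% in wild type and 7.69, 5.24 and 5.504% in sgd. That of PSAD-2 in the PSAD sum was 18.2, 19.1 and 15.3% in wild type and 35.2, 28.7 and 30.8% in sgd, and that of LHCB2.3 in the LHCB2 sum was 31.3, 14.4 and 17.03% in wild type and 2.603, 4.62 and 6.04% in sgd. The minor copy thus gained weight in PSBO and PSAD and lost it in LHCB2. The share of LHCB4.3 in the LHCB4 sum was 6.17, 4.91 and 7.21% in wild type and 2.08, 2.64 and 2.06% in sgd. In LHCB1 the share of LHCB1.2 was 2.41, 2.33 and 1.61% in wild type and 4.87, 4.52 and 4.35% in sgd and that of LHCB1.1 was 1.09, 2.51 and 2.16% in wild type and 0.281, 0.253 and 0.211% in sgd. The shares of PSAE-2, PSBQ-2 and PSAH-1 stood within 62.2% to 71.2%, 54.2% to 65.2% and 25.9% to 49.5% over the 6 libraries, overlapping between genotypes in each. A share within a family shows unequal change of its copies and no more. No 50-base window was shared between the copies of PSBO, PSAD, PSAE, PSAH, PSBQ or LHCB4.

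**Figure D4:**
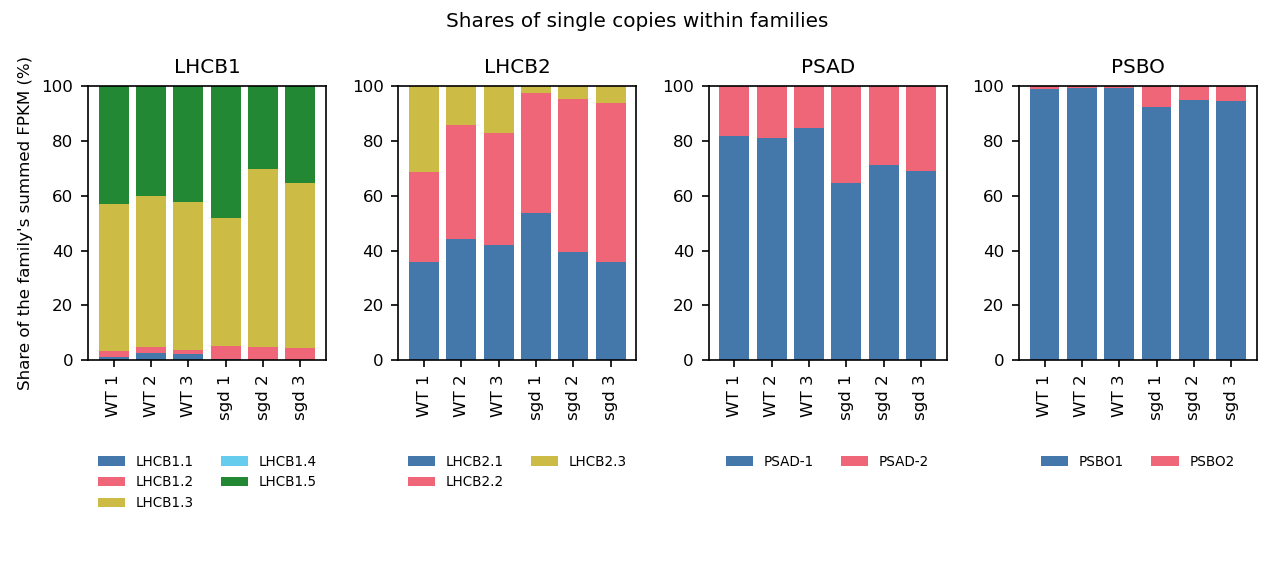
Share of each copy in the summed FPKM of its family (percent, stacked to 100) in each library. The PSBO2 share is 0.648% to 0.986% in wild type and 5.24% to 7.69% in sgd, that of PSAD-2 15.3% to 19.1% and 28.7% to 35.2%, and that of LHCB2.3 14.4% to 31.3% and 2.60% to 6.04%.

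Other genes of photosynthesis were compared in 7 lists of 77 genes. Of all tested features 13.3% were called higher and 4.47% lower, and with the block 26.5% and 14.3%. Of 11 other Calvin cycle genes 5 rose (45.5%) and 0 fell, with a median change of 0.71. HCEF1 (AT3G54050), plastid fructose-1,6-bisphosphatase, stood at 2.41, 5.85 and 3.36 FPKM in wild type and 30.2, 27.3 and 23.6 FPKM in sgd, with widely separate groups, and rose by 2.58 (log2 scale, SE 0.30, adjusted p = 0.000374 in limma). CP12-2 (AT3G62410) and CP12-1 (AT2G47400), encoding the protein that binds GAPDH and PRK, rose by 1.44 and 1.25 on the log2 scale (limma adjusted p = 0.0102 and 0.0391), and FBA2 (AT4G38970), a plastid aldolase, by 1.03 (limma adjusted p = 0.0221). With the block 7 were higher (63.6%).

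Of 16 tested genes of chlorophyll synthesis 3 rose (18.8%, against 13.3% of all features) and 0 fell, with a median change of 0.31. HEMA1 (AT1G58290), glutamyl-tRNA reductase at the first committed step, went from 32.6 ± 9.87 to 92.8 ± 22.3 FPKM (SD, n = 3), CHLM (AT4G25080), a methyltransferase of the magnesium branch, from 37.1 ± 11.8 to 83.7 ± 17.7 FPKM (SD, n = 3), and PORB (AT4G27440), a light-dependent protochlorophyllide reductase, from 70.6 ± 15.9 to 210.4 ± 78.5 FPKM (SD, n = 3). Their log2 changes were 1.501, 1.18 and 1.51 (limma adjusted p = 0.0114, 0.0309 and 0.0169), and in each every sgd value lay above every wild-type value. With the block 6 were higher (37.5%, against 26.5% of all features) and 1 lower. Of 6 genes of chlorophyll breakdown 2 rose (33.3%) and 0 fell, with a median of 0.86. NYE1 (AT4G22920), the magnesium dechelatase of stay-green, went from 6.26 ± 0.94 to 18.5 ± 3.87 FPKM (SD, n = 3), a log2 difference of 1.42 (SE 0.25, limma adjusted p = 0.00394), and PPH (AT5G13800), pheophytinase, from 11.2 ± 2.99 to 21.9 ± 3.21 FPKM (SD, n = 3), a log2 difference of 0.94 (SE 0.27, limma adjusted p = 0.04).

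Of 12 genes of electron transport and ATP synthase 3 rose (25%, against 13.3% of all features) and 0 fell, with a median of 0.53. With the block 6 rose (50%, against 26.5%). PETE1 (AT1G76100), the minor plastocyanin gene, rose by 1.48 (log2 scale, SE 0.27, adjusted p = 0.00471 in limma), and FNR1 (AT5G66190), ferredoxin-NADP reductase, by 1.34 (log2 scale, SE 0.28, adjusted p = 0.00879 in limma). ATPC1 (AT4G04640), the gamma subunit of ATP synthase, rose by 0.91 (log2 scale, SE 0.27, adjusted p = 0.0443 in limma). Of 9 other light-harvesting-like and photosystem genes 2 rose (22.2%) and 1 fell. PSBP-2 (AT2G30790) and PSB27 (AT1G03600), both related to photosystem II, rose by 1.62 and 1.41 (limma adjusted p = 0.00391 and 0.0115). ELIP1 (AT3G22840), an early light-induced protein, stood at 72.1, 104 and 126 FPKM in wild type and 16.3, 45.7 and 23.8 FPKM in sgd, lower in every sgd library, and fell by 1.87 (log2 scale, SE 0.39, adjusted p = 0.00858 in limma). No plastid sigma factor of 5 tested was called by limma (1 at an unadjusted p under 0.05), and with the block 3 were higher (SIG1, SIG3 and SIG6, named after their values were seen), none of which was called with the block and median-ratio scaling (limma adjusted p from 0.0595 to 0.118).

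**Figure D5:**
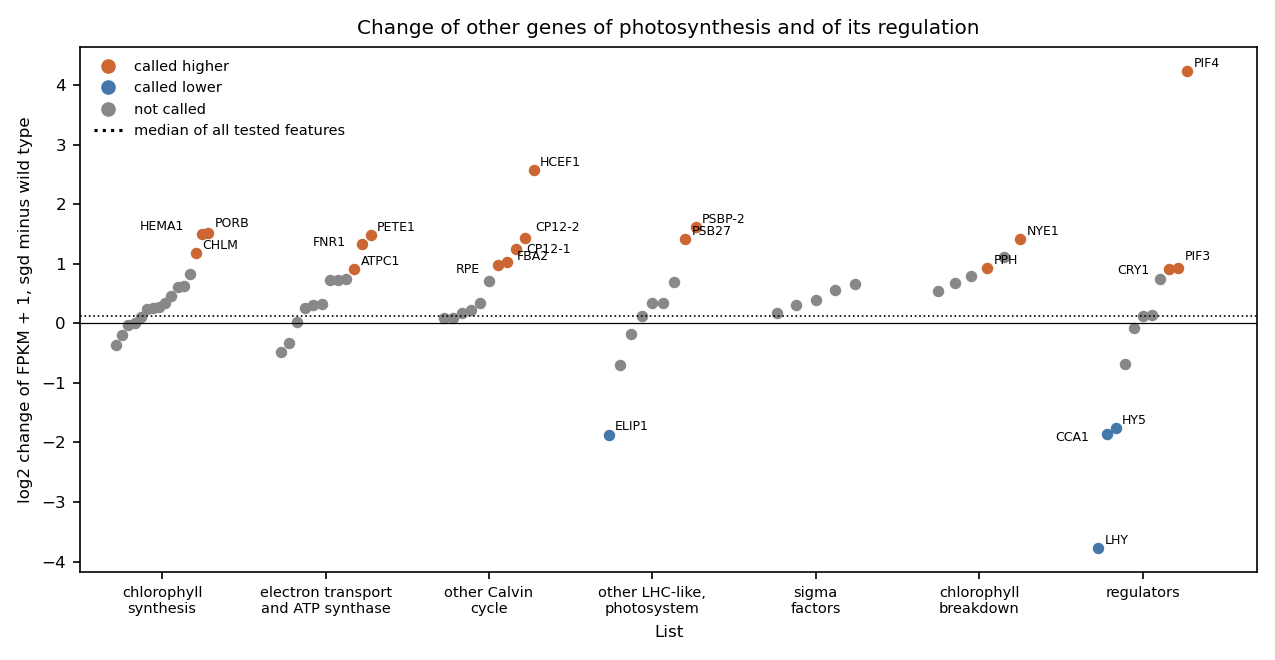
Log2 change of FPKM + 1, sgd minus wild type, of each tested gene in 7 lists of other photosynthesis genes, chlorophyll genes, sigma factors and regulators. Called genes are named, in orange if higher and in blue if lower, and PIF4 (4.24) and LHY (-3.77) lie farthest from the dotted median of all features (0.13).

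Among 11 tested regulators of photosynthesis genes 3 rose (27.3%) and 3 fell, against 13.3% and 4.47% of all features, none of the 3 and 3 with overlap between the groups. PIF4 (AT2G43010), a bHLH factor that binds G-boxes and promotes growth in shade and warmth, stood at 0.35, 0.33 and 0.32 FPKM in wild type and 25.8, 18.6 and 29.7 FPKM in sgd, and rose by 4.24 (log2 scale, SE 0.26, adjusted p = 1.25e-05 in limma). PIF3 (AT1G09530), a related factor that represses chlorophyll and photosynthesis genes in dark-grown seedlings, stood at 3.29, 4.03 and 3.64 FPKM in wild type and 7.03, 8.29 and 8.26 FPKM in sgd and rose by 0.93 (log2 scale, SE 0.24, adjusted p = 0.0233 in limma). HY5 (AT5G11260), a bZIP factor that binds G-boxes in the light, stood at 4.67, 5.15 and 6.74 FPKM in wild type and 0.68, 1.37 and 0.74 FPKM in sgd. It was lower in every sgd library and fell by 1.76 (log2 scale, SE 0.28, adjusted p = 0.00225 in limma). LHY (AT1G01060), a morning clock factor, stood at 12.6, 49.7 and 44.9 FPKM in wild type and 2.42, 1.47 and 0.47 FPKM in sgd, and fell by 3.77 (log2 scale, SE 0.50, adjusted p = 0.000737 in limma). Its partner CCA1 (AT2G46830), named here after its values were seen, stood at 2.87, 13.9 and 11.2 FPKM in wild type and 2.58, 0.84 and 1.23 FPKM in sgd, with only a small gap between wild-type library 1 and sgd library 1 (log2 change -1.86, SE 0.48, limma adjusted p = 0.024, and 0.0663 with the block, where it was not called). The hour of collection is not stated in the sources used here, and the part of clock phase in the photosynthesis values was not tested. GLK1, GNC and CGA1, activators of chloroplast genes in leaves, were at 0.07 FPKM or less in every library, and GLK2 at 0.09 to 0.4 FPKM in wild type and 0.67 to 1.3 FPKM in sgd.

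Some calls in these lists depended on single libraries. Lost were that of HEMA1 without sgd library 3 (limma adjusted p = 0.0507), that of PORB without wild-type library 1 or 3 or sgd library 3 (up to 0.0868), that of FBA2 without wild-type library 1 or 3 or sgd library 2 (up to 0.112), those of CHLM and CP12-1 without wild-type library 1 or 3 or sgd library 2 or 3 (up to 0.131 and 0.148), and those of ATPC1, PIF3 and PPH without any library other than sgd library 1 (up to 0.166, 0.108 and 0.102). With no filter the calls of ATPC1, CHLM, CP12-1, CP12-2, ELIP1, FBA2, HEMA1, PORB, PPH and PSB27 were lost (limma adjusted p from 0.0571 to 0.102), with a mean of at least 5 FPKM those of ATPC1 and PIF3 (0.0536 and 0.0682), and that of PPH with quantile normalization (0.0508) and with the block and median-ratio scaling (0.065).

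Markers of the labelled tissue and of tissues around it were summed, with no test. All 6 ovule markers were listed above 0 in wild type, and their sum was 492, 1028 and 1066 FPKM in wild type and 195, 457 and 437 FPKM in sgd, mostly from STK at 341, 738 and 750.4 FPKM in wild type and 114, 314 and 280.3 FPKM in sgd. In sgd libraries 2 and 3 SPL was listed at 0. The 6 pollen markers summed to 18.5, 7.01 and 8.72 FPKM in wild type and 140.3, 128 and 61.5 FPKM in sgd, led by VGD1 at 6.4, 2.09 and 2.81 FPKM in wild type and 58.8, 54.8 and 27.6 FPKM in sgd. Ovule sums were lower and pollen sums higher in every sgd library, but not every marker followed its sum. The pollen marker HAP2, named here after its values were seen, was lower in every sgd library. It stood at 0.83, 1.28 and 1.36 FPKM in wild type and 0.22, 0.48 and 0.16 FPKM in sgd. Of the ovule markers, INO and ATS overlapped between the genotypes. The 7 carpel wall markers summed to 368, 536 and 541 FPKM in wild type and 489, 676 and 698 FPKM in sgd, with overlap. Every sgd value lay above every wild-type value in SHP1 (112 to 170 and 176 to 263 FPKM), ALC (103.5 to 145 and 160 to 195 FPKM) and RPL (40.2 to 44.9 and 51.6 to 64.0 FPKM). SHP2 (109.5 to 190 and 98.2 to 182 FPKM) overlapped, as did FUL, named here after its values were seen. FIL and IND, at 0.62 FPKM or less in wild type, were lower in every sgd library. FIL was listed at 0 in every sgd library and IND in sgd libraries 1 and 3. The 5 leaf mesophyll markers summed to 29.8, 45.7 and 39.3 FPKM and 66.25, 68.4 and 62.65 FPKM, higher in every sgd library. The most abundant of them was GLDP1 at 14.8, 26.9 and 21.4 FPKM in wild type and 24.9, 28.6 and 24.1 FPKM in sgd, with overlap, while SHM1 at 12.04, 14.2 and 13.8 FPKM in wild type and 20.4, 26.9 and 22.7 FPKM in sgd and HPR at 2.73, 4.47 and 3.96 FPKM in wild type and 20.8, 12.2 and 15.6 FPKM in sgd had separate groups. The leaf carbonic anhydrase genes CA1 and CA2 were at 0.39 FPKM or less throughout, with CA2 listed at 0 in wild-type library 2. The 7 stomatal markers summed to 16.2, 16.2 and 19.9 FPKM and 3.99, 14.9 and 12.6 FPKM, lower in every sgd library. Most of the sgd sums came from HIC, at 11.13, 9.17 and 11.76 FPKM in wild type and 3.7, 14.82 and 11.85 FPKM in sgd, with overlap. EPF2 stood at 4.45, 6.59 and 7.59 FPKM in wild type and at 0.06 FPKM or less in sgd. MUTE was listed at 0 in every library and EPF2, FAMA, EPF1 and TMM in at least 1. The 3 petal and stamen markers summed to 22.6, 59.4 and 64.1 FPKM and 26.5, 51.6 and 53.2 FPKM, with overlap and almost all from AP3, while PI and AP1 were listed at 0 in at least 1 library. The part of pollen, carpel wall or other green tissue in the photosynthesis values was not tested.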

How the data were processed

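Poly(A) RNA of wild-type and sgd ovules was sequenced in 3 libraries each. The authors deposited FPKM values with 2 decimals, per the file headers. The submitters' processing notes name the build TAIR10 and, without roles, RSEM, TopHat2 2.1.1, cutadapt 1.15, DESeq2 and CASAVA. Since RSEM splits reads among similar copies, 9 families were also summed. Whether counting used strand is not stated. From the steps of low values, depth was estimated at 26200000, 34300000 and 40000000 fragments in wild-type libraries 1, 2 and 3 and 23700000, 14000000 and 13200000 in sgd (95.4% to 97.1% of those values fell within 0.2 of whole fragments at the fitted step), so low values of sgd libraries 2 and 3 rest on the fewest fragments.

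The 18100 features with a mean of at least 1 FPKM were fitted in limma 3.58.1 under R 4.3.3 (lmFit, eBayes with a trend, two-sided) on log2(FPKM + 1), which understates changes of low genes, adjusted by Benjamini-Hochberg at a threshold of 0.05. The test and the depth estimate were checked on simulated data. The values simulated for the test had independent noise in each gene. False calls under deviations shared by the genes of a library were therefore not checked. The labels number the libraries. Across features, deviations from the genotype means correlated at 0.524, 0.236 and 0.377 between libraries numbered 1, 2 and 3, each above the minimum of 0.1 set for treating the numbers as pairs. Wild-type library 3 with sgd library 2 (0.431) and wild-type library 2 with sgd library 3 (0.354) correlated as well, so that only the libraries numbered 1 stood apart from the rest. The block is an alternative, beside other pseudocounts (0.1, 0.01), filters (none, 5 FPKM), scalings, eBayes settings, array weights, summed copies and left-out libraries.

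The members and lists were chosen with earlier results of these data known. Every member is accounted for. From each related list up to 4 tested genes with the smallest p are candidates for naming, of which called ones are described. From marker lists the most abundant, up to 4, and those listed at 0 in a library could be named. All 162 loci matched the RefSeq table of TAIR10.1. Chloroplast loci were only summed, since that table does not pair their identifiers with names.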

Additional observations from a re-analysis of the deposited data

How the results depend on the processing

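Over the alternatives run, the 47 tested photosynthesis genes kept their side of the threshold in 767 comparisons, lost a call in 29, gained one in 96 and reversed in 1. A gene without a call counted as reversed only if the opposite sign was called, so the 767 include sign changes of uncalled genes. LHCB2.1 ranged from -0.26 to 1.45 over the alternatives and RCA from -0.23 to 0.49. The reversed value was RBCS3B with array quality weights, at -0.37 (limma adjusted p = 0.02), a fit whose weights did not converge. The number of photosynthesis genes called higher, 13, became 6 with no filter, 24 with equal totals, 24 with quantile normalization, 22 with median-ratio scaling, 27 with array quality weights and 27 without both libraries numbered 1. It ranged from 9 to 20 when 1 library was left out. The number called lower, 1, became 0 with no filter, with a pseudocount of 0.01, with eBayes without a trend and with copies summed, 3 with array quality weights and 2 without both libraries numbered 1, and ranged from 0 to 2 when 1 library was left out. With the replicate block 27 were higher and 1 lower, and 22 and 1 when the block went with median-ratio scaling. Among all tested features 4793 were higher and 2583 lower with the block, and 3663 were lower with the block and median-ratio scaling.

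All features called higher, 2407, became 4129 with equal totals, 8190 with array quality weights and 5797 without both libraries numbered 1, and ranged from 1514 to 3505 when 1 library was left out. Those called lower, 809, became 412 with no filter, 2626 with equal totals, 3726 with quantile normalization, 3391 with median-ratio scaling, 4421 with array quality weights and 3156 without both libraries numbered 1, and ranged from 382 to 1022 when 1 library was left out. With no filter 30457 features entered the adjustment in place of 18100. The cause of the other shifts was not tested. Depth was lower in sgd libraries 2 and 3, and 4 members were too low to test.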
